A study of Mus musculus with 4 samples.

Results

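The genes described here encode the mitochondrial carriers of the SLC25 family, chosen as every row of the count matrices whose symbol began with Slc25a, 47 of 21933 genes. Their transcripts were counted in single nuclei from the right cortical hemisphere of adult male mice, as unique molecular identifiers (UMIs, which count each captured molecule once). The 2 Control libraries came from CrT+/y wild-type littermates and the 2 CrT-KO libraries from CrT-/y mice, which carry a deletion in Slc6a8, the X-linked creatine transporter gene, in every cell. Each library was made from the sorted nuclei of 1 untreated mouse on a C57Bl/6J background. Since the deletion was not limited to a cell type, its effect within a cell and its effect through other cells cannot be told apart.

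SLC25 carriers move metabolites, nucleotides and cofactors across the inner mitochondrial membrane. The ADP/ATP translocases and the phosphate carrier supply ATP synthase and export its product, and the aspartate/glutamate carriers form part of the malate-aspartate shuttle, which passes reducing equivalents from glycolysis to the mitochondrial matrix. Creatine kinase uses exported ATP to make phosphocreatine, the energy buffer whose precursor enters the cell through the transporter deleted here.

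The libraries held 8282 to 9295 nuclei and 51507483 to 65240843 UMIs. After the removal of 1236 doublets, marker genes gave a name to 32227 nuclei: 15386 excitatory neurons, 8088 inhibitory neurons, 5063 oligodendrocytes, 2217 microglia, 720 oligodendrocyte precursors (OPCs), 500 astrocytes and 253 endothelial cells and pericytes. Between 6.20% and 6.67% of the kept nuclei of each library stayed unnamed. Of these 2231 nuclei, 1713 formed 1 cluster that scored highest for the excitatory markers (leading genes Scn7a, Deptor and Il1rapl2 among others) but had Aldh1l1, an astrocyte marker, and no excitatory marker among its 10 leading genes, so it is missing from the excitatory values below. Clustering at resolution 0.5 or with the carriers kept among the clustering genes named it, giving 17105 and 17094 excitatory neurons, and the mean levels of the 20 carriers with at least 10 CPM there then moved by -2.76% to 1.40%. The inhibitory neurons included 2532 nuclei with markers of striatal projection neurons, which are not cortical cells. They also held clusters of 1309 nuclei led by Baiap3 and Prlr and of 622 led by Lgr6 and Igfbpl1, whose origin was not examined. When these neurons were clustered again, 490 nuclei were led by Slc17a6, and 188 nuclei with a median of 732 UMIs were led by mitochondrial genes. UMIs of Slc6a8 numbered 303 and 300 in control 1 and 2 and 87 and 70 in CrT-KO 1 and 2, a log2 fold change of -1.96 (SE 0.162, edgeR quasi-likelihood test with Benjamini-Hochberg adjustment, adjusted p = 0.0067), which is the direction the labels give. Any pair of libraries shared 12 to 19 barcodes. Each library is 1 mouse, with 2 in each group. The spread between libraries thus holds that between animals and that of preparing and sequencing the nuclei, which cannot be told apart.

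Levels are given in CPM, the UMIs of a gene after the UMIs of a cell population in a library were scaled to a sum of 1000000. Over all named nuclei, 26 of the 47 carriers had at least 1000 UMIs and 6 had fewer than 100. Reads in introns were counted, so longer genes collect more UMIs and different genes were set against each other only per kilobase of gene body. On that scale Slc25a23, a calcium-regulated ATP-Mg/phosphate carrier, came first with 5.08 (range 4.46 to 5.55) CPM per kb over the 4 libraries. Slc25a4, the ADP/ATP translocase ANT1, had 4.38 (range 3.76 to 5.01) and Slc25a3, the phosphate carrier, had 4.38 (range 3.82 to 5.23), so the libraries of these 3 genes overlapped. The pseudogene Gm13904 resembles the transcript of Slc25a3, so the counts of Slc25a3 are uncertain. Slc25a2, an ornithine carrier, had 5 UMIs in all, and genes on the other strand cover its whole length.

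**Figure D1:**
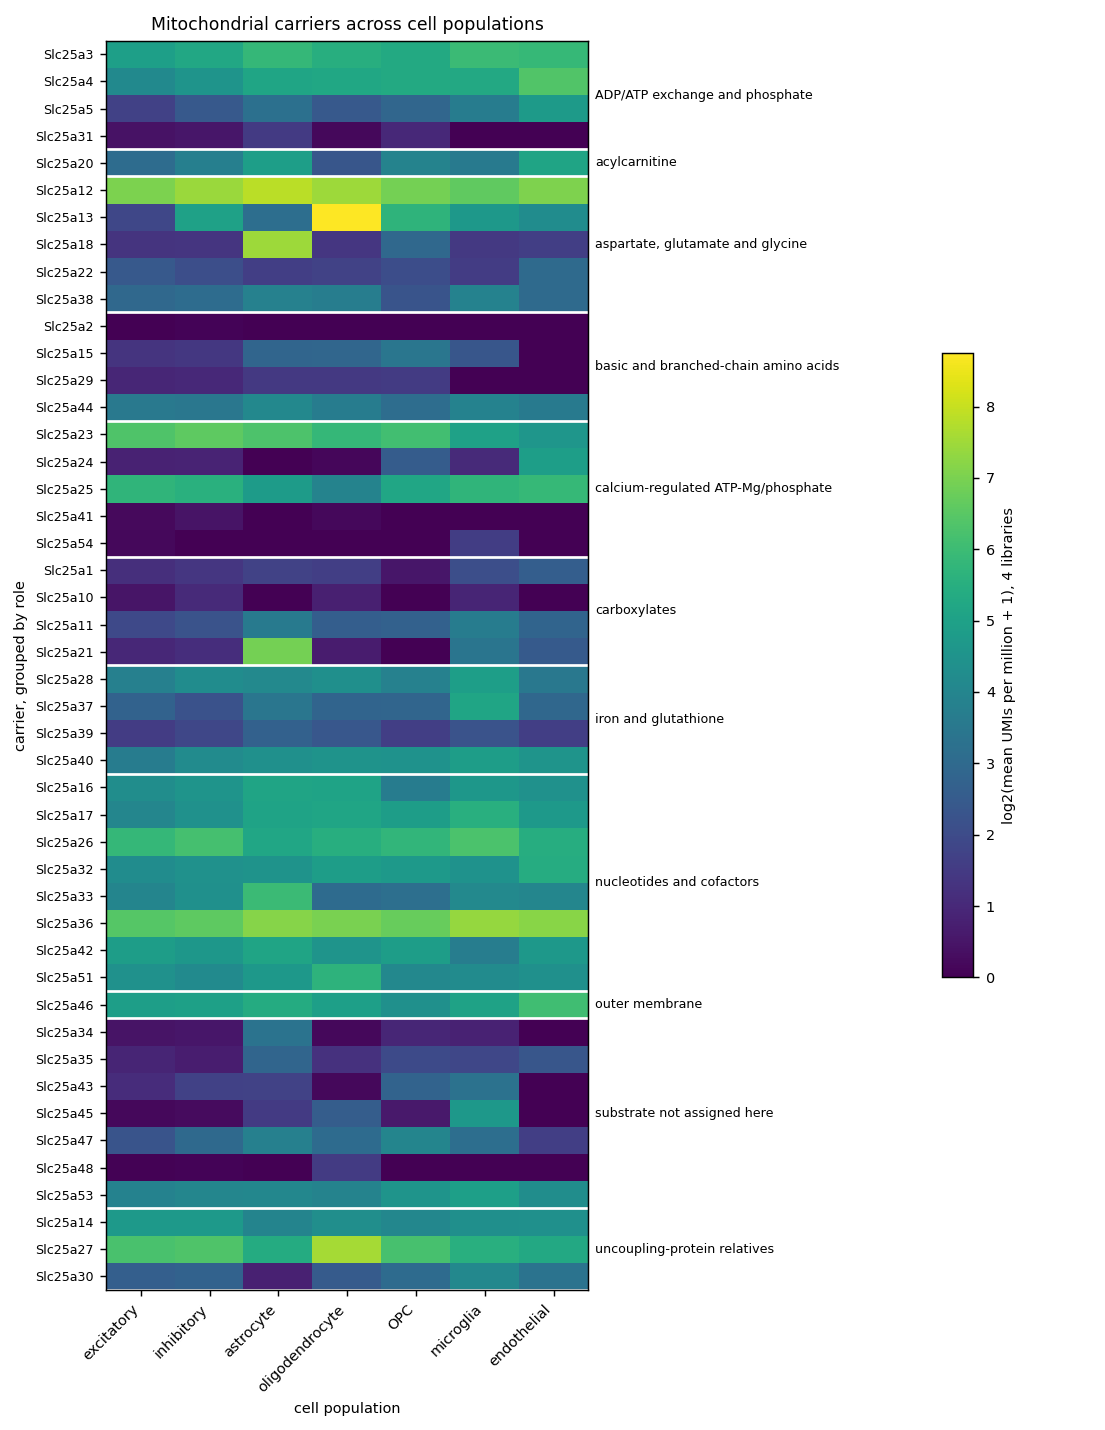
Mean level of each of 46 carriers (rows, grouped by role) in the 7 cell populations (columns), shown by colour as log2(mean CPM + 1) over the 4 libraries. Slc25a13 in oligodendrocytes and Slc25a18 and Slc25a21 in astrocytes stand out along their rows, and colours can be compared along a row only, since gene length differs between rows.

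The upstream sequences of Slc25a13, Slc25a18 and Slc25a21 are shown because, among the carriers tested between populations, these had the largest ratio of the highest population to the next (8.47, 25.9 and 12.7). Each is the 250 bases before the RefSeq start site (build GRCm38.p6), read 5′ to 3′ on the strand of the gene, with a match to the letters TATAAA on either strand in capitals. They lie at chr6:6217174-6217423, minus strand (Slc25a13), chr6:120773518-120773767, plus strand (Slc25a18) and chr12:57197473-57197722, minus strand (Slc25a21). The GENCODE gene of Slc25a18 begins earlier, at 120773578, so most of that stretch, with the capitals, lies inside the gene as positioned by GENCODE.
Slc25a13: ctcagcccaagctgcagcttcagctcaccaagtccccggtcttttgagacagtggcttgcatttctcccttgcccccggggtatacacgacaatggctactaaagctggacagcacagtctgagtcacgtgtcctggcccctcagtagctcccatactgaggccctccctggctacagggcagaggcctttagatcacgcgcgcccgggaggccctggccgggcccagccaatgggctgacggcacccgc
Slc25a18: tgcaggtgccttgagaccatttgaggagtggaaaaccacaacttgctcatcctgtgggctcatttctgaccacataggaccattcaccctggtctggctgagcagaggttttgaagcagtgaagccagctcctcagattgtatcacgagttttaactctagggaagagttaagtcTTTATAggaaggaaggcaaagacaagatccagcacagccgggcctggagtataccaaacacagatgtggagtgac
Slc25a21: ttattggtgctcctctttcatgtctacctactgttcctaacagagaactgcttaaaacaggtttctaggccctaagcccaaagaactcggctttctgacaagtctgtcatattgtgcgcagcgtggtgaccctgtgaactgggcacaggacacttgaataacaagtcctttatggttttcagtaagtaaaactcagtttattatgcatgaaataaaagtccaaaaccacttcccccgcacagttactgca
RefSeq promoters, running from 250 bases before to 50 after the start, were matched to 36 of the 47 carriers. TATAAA was present in 1 of the 36, Slc25a18, and in 13.1% of all 16758 promoters. GC content was 65% for Slc25a13, 49.3% for Slc25a18 and 43% for Slc25a21, with a median of 60.2% over the 36 carriers and 56.7% over all promoters. GGGGCGGGG (SP1) was present in 5 of the 36 and in 15.9% of all promoters. CCGGAAGT (GABPA) was present in Slc25a20 alone and in 5.47% of all promoters, and TGACGTCA (CREB) in Slc25a36 alone and in 2.43%. The NRF1 motif and TCAAGGTCA (ERR) were present in none of the 36 and in 1.37% and 0.334% of all promoters. All letters were searched on both strands, and overlap between motifs was not examined.

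Differences between cell populations were tested within libraries, each population against the mean of the other 6, and called at an adjusted p under 0.1 with a log2 difference of at least 1. The filter on low counts required about 17.0 CPM in at least 4 of the 28 sums of a population and library, so a carrier with few UMIs passed where they lay in 1 population. It admitted 27 of the 47 carriers, of which 15 were called in at least 1 population and 12 in none. The carriers Slc25a18, Slc25a21, Slc25a24, Slc25a37, Slc25a44 and Slc25a45 would not have passed without the sums of 1 population. All of these but Slc25a44 were called, which their passing made likely, so their levels are given as a description with no test. Of the 21 carriers that would have passed without any 1 population, 10 were called, with 22 of the 35 calls. The counts that follow still include the calls of the other carriers. Higher calls numbered 2 in excitatory neurons (17.6% of the 9395 genes tested were called higher there), 1 in inhibitory neurons (15.9%), 4 in astrocytes (14.2%), 4 in oligodendrocytes (12.1%), 2 in OPCs (12.1%), 3 in microglia (15.8%) and 3 in endothelial cells and pericytes (14.4%). Lower calls numbered 2 in excitatory neurons (11.7%), 1 in inhibitory neurons (9.66%), 1 in astrocytes (13.9%), 4 in oligodendrocytes (18.1%), 2 in OPCs (7.91%), 4 in microglia (19.9%) and 2 in endothelial cells and pericytes (12.9%). Out of 27, these counts were close to or below the shares of all genes, so they say nothing particular about the family, and the values of the single carriers follow. The 4 libraries of the highest population lay above all other libraries for 11 of the 27 carriers and for 36.4% of all genes tested. These carriers include Slc25a18, Slc25a21, Slc25a24, Slc25a37 and Slc25a45, which passed the filter through 1 population. The populations differed in depth, with a median of 7163 to 8694 UMIs per nucleus in excitatory neurons and 878 to 1033 in microglia, and the part of depth in these differences was not tested.

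The aspartate/glutamate carriers had unlike distributions. Slc25a13, or citrin (chr6:6041218-6217173, minus strand, GRCm38), had 349, 462, 368 and 539 CPM in the oligodendrocytes of control 1, control 2, CrT-KO 1 and CrT-KO 2, the order used throughout. In OPCs, the next highest population, it had 40.5, 44.2, 51.7 and 66.5. In excitatory neurons, the lowest, it had 2.97, 2.56, 2.35 and 2.77.

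Every oligodendrocyte library of Slc25a13 thus lay above all libraries of the other populations. Slc25a13 was higher in oligodendrocytes (log2 difference 4.86, SE 0.0852, adjusted p = 1.51e-46) and in OPCs (1.30, SE 0.25, adjusted p = 2.07e-05). It was lower in excitatory neurons (-3.24, SE 0.34, adjusted p = 2.18e-12) and in astrocytes (-2.25, SE 0.508, adjusted p = 0.000208). Inhibitory neurons had an intermediate 31.4 ± 3.7 (SD, n = 4 libraries). Slc25a12, or aralar, which carries out the same exchange, was more even, with means from 97.9 in microglia to 228 in astrocytes. Its only call was a lower level in microglia (-1.05, SE 0.106, adjusted p = 7.78e-13), which under the DESeq2 scaling came to -0.99, short of the required difference, and which was lost in 3 of 9 alternatives.

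**Figure D2:**
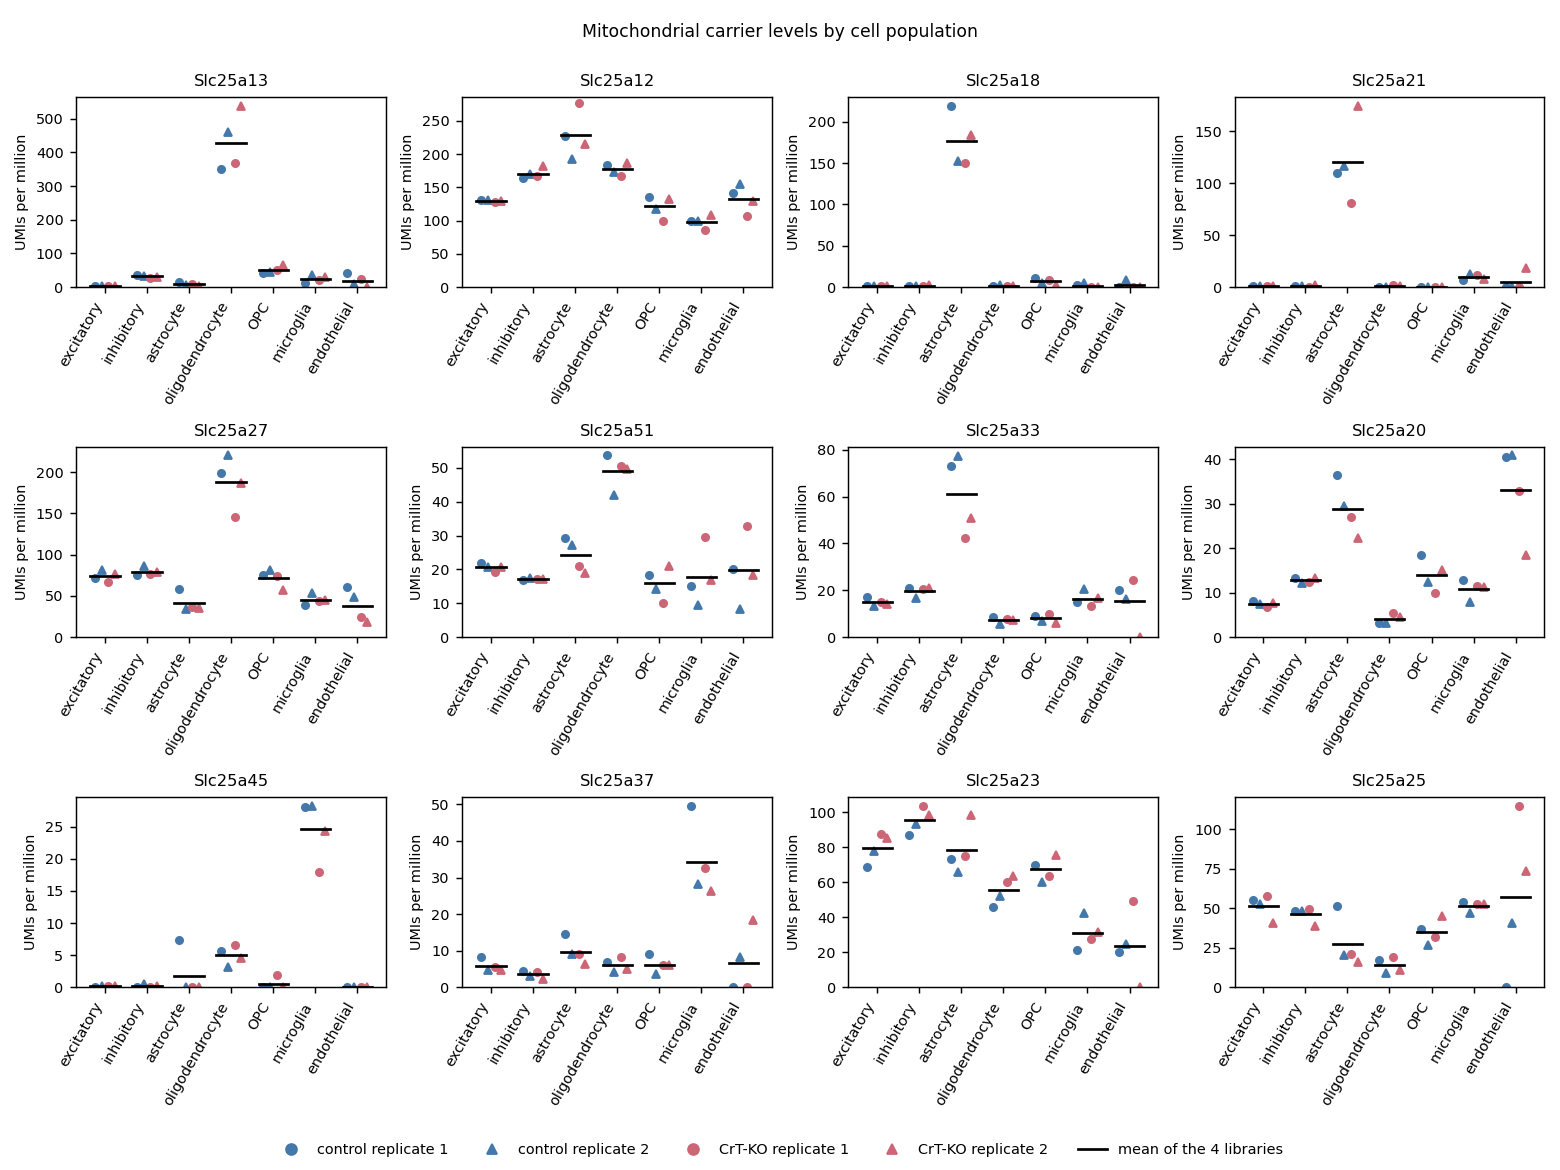
Levels of 12 carriers in each cell population in CPM (linear axes from 0), with a point for each library, coloured by genotype and shaped by replicate number, and a line at the mean of the 4 libraries. Slc25a13, Slc25a27 and Slc25a51 are highest in oligodendrocytes, Slc25a18, Slc25a21 and Slc25a33 in astrocytes, and Slc25a45 and Slc25a37 in microglia.

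The glutamate carriers also differed from each other. Slc25a18 (chr6:120773578-120794336, plus strand) had 219, 152, 151 and 184 CPM in astrocytes. In OPCs, the next highest population, it had 11, 5.3, 7.96 and 3.02. The astrocyte libraries lay above all others. Slc25a22, the other glutamate carrier, did not reach the level of the filter in enough sums to be tested, with 785 UMIs in all and levels of 4.39 ± 0.921 in excitatory and 3.31 ± 0.956 in inhibitory neurons (SD, n = 4 libraries). Slc25a38, a glycine carrier needed for haem synthesis, was not tested either, and its mean ran from 3.79 in OPCs to 13.7 in microglia with overlapping libraries.

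Among the carboxylate carriers, Slc25a21 (chr12:56712634-57197472, minus strand), which carries oxoadipate and oxoglutarate, had its highest level in astrocytes. The libraries held 109.7, 116, 81.3 and 175 CPM in astrocytes, from 148 UMIs. In microglia, the next highest population, it had 6.46, 12.6, 11.5 and 7.48, from 22 UMIs. The astrocyte libraries lay above all others. OPCs had 0 of 1942601 UMIs, which allows up to 1.54 CPM. Slc25a1 (citrate), Slc25a10 (dicarboxylates) and Slc25a11 (oxoglutarate and malate) were not tested, with 285, 113 and 644 UMIs in all.

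Slc25a20, the carnitine/acylcarnitine carrier that admits fatty acids for oxidation, had its highest means in astrocytes and in endothelial cells with pericytes. It had 36.6, 29.6, 27.1 and 22.2 CPM in astrocytes and 3.1, 3.19, 5.34 and 4.56 in oligodendrocytes, with no overlap. It was higher in astrocytes (1.30, SE 0.275, adjusted p = 8.16e-05) and in endothelial cells and pericytes (1.18, SE 0.439, adjusted p = 0.0432, from 12 UMIs) and lower in oligodendrocytes (-1.92, SE 0.233, adjusted p = 2.72e-10). The endothelial call was lost in 4 of 9 alternatives.

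Oligodendrocytes were also highest in Slc25a27, or UCP4 (chr17:43641891-43667214, minus strand), a relative of the uncoupling proteins. It had 199, 221, 145 and 187 CPM there. Inhibitory neurons, the next highest, had 75.2, 86.6, 76.9 and 79.3. The libraries did not overlap, with a higher call in oligodendrocytes (1.81, SE 0.0802, adjusted p = 2.45e-27) and a lower call in endothelial cells and pericytes (-1.46, SE 0.354, adjusted p = 0.000779). Slc25a14, or UCP5, was called nowhere, with means from 14.3 in astrocytes to 25.5 in excitatory neurons, and Slc25a30 was not tested.

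Of the nucleotide and cofactor carriers 8 were tested, and 5 of them were called nowhere (Slc25a16, Slc25a17, Slc25a26, Slc25a32 and Slc25a36). Slc25a51, which brings NAD into the matrix, had 53.9, 41.9, 50.4 and 49.6 CPM in oligodendrocytes. In astrocytes, the next highest, it had 29.3, 27.3, 21.1 and 19, below every oligodendrocyte library, and the log2 difference of oligodendrocytes was 1.39, SE 0.134, adjusted p = 1.91e-13. Slc25a33, a pyrimidine nucleotide carrier, had 73.2, 77.4, 42.2 and 50.8 in astrocytes, above all other libraries. It was higher in astrocytes (2.21, SE 0.232, adjusted p = 5.3e-12) and lower in oligodendrocytes (-1.34, SE 0.239, adjusted p = 2.8e-06) and OPCs (-1.05, SE 0.347, adjusted p = 0.0128), the last call being lost in 2 of 9 alternatives. Slc25a36, also a pyrimidine nucleotide carrier, had means from 86.8 in excitatory neurons to 163 in microglia. Slc25a42, a coenzyme A carrier, had 12.9, 12.6, 11.5 and 11.2 in microglia, where it was lower than in the other populations (-1.59, SE 0.259, adjusted p = 3.78e-07).

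The ATP-Mg/phosphate carriers load the matrix with adenine nucleotides when cytosolic calcium rises, and Slc25a23 was higher in both classes of neurons and Slc25a25 in excitatory neurons. Slc25a23 (chr17:57043711-57059863, minus strand) had 68.8, 77.8, 87.3 and 85.1 CPM in excitatory neurons and 86.8, 93.4, 104 and 98.5 in inhibitory neurons. In microglia it had 21.5, 42.4, 27.8 and 31.8. It was higher in excitatory (1.05, SE 0.0711, adjusted p = 2.09e-19) and inhibitory neurons (1.16, SE 0.0721, adjusted p = 6.35e-21) and lower in microglia (-1.38, SE 0.186, adjusted p = 5.01e-09) and in endothelial cells and pericytes (-1.67, SE 0.371, adjusted p = 0.000225). Crb3 overlaps 4.70% of Slc25a23 on the other strand, and whether counting used strand is not given in the sources used here.

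Slc25a25 had 55.4, 52.8, 57.5 and 40.7 CPM in excitatory neurons and 17.4, 9.11, 19 and 10.8 in oligodendrocytes. It was higher in the first (1.07, SE 0.0848, adjusted p = 1.01e-16) and lower in the second (-1.61, SE 0.177, adjusted p = 1.41e-11). In inhibitory neurons it had 48.2, 48.5, 49.5 and 38.9, and the log2 difference of 0.69 was short of the required 1. The highest mean was in endothelial cells and pericytes, at 57.4 (range 0 to 115, from 23 UMIs), with overlapping libraries and no call. Under the DESeq2 scaling the excitatory differences of Slc25a23 and Slc25a25 were 0.95 and 0.97, short of the required difference, and these calls were lost in 2 of 9 and 3 of 9 alternatives. Slc25a24 rested on few counts, with UMIs of 2, 3, 4 and 1 in endothelial cells and pericytes and 2, 1, 4 and 2 in OPCs. Astrocytes had 0 of 1223467 UMIs of Slc25a24, which allows up to 2.45 CPM. Slc25a41 and Slc25a54 were not tested.

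Of the carriers that serve ATP synthase, Slc25a3 was called nowhere and its mean ran from 29.6 in excitatory neurons to 61.3 in microglia. Slc25a4 (chr8:46206797-46211284, minus strand) had 80.9, 115, 73.7 and 55.4 CPM in endothelial cells and pericytes, from 30 UMIs, and 19.6, 18.6, 14.5 and 15.1 in excitatory neurons. It was higher in endothelial cells and pericytes (1.01, SE 0.285, adjusted p = 0.00378), a call lost in 2 of 9 alternatives. Slc25a5, the translocase ANT2, was not tested, and its 595 UMIs are uncertain because 7 pseudogenes resemble its transcript. Slc25a31, the germline translocase, had 72 UMIs in all.

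Microglia were highest in an iron carrier and in a carrier with no substrate assigned here. Slc25a37, or mitoferrin-1 (chr14:69241848-69285112, minus strand), had 49.6, 28.2, 32.7 and 26.2 CPM in microglia and 14.6, 9.1, 9.03 and 6.35 in astrocytes, the next highest, with no overlap. The transcript of Gm16867 resembles that of Slc25a37, so the counts of Slc25a37 are uncertain. Pseudogenes also resemble the transcripts of Slc25a3 (Gm13904), Slc25a36 (Gm13217) and Slc25a40 (Gm5066), so the counts of these carriers are uncertain in every population. Slc25a45 (chr19:5877808-5885878, plus strand) had 28, 28.2, 18 and 24.3 in microglia, from 55 of its 119 UMIs. In oligodendrocytes it had 5.58, 3.19, 6.53 and 4.56, from 35 UMIs. The microglial libraries lay above all others. Slc25a28, or mitoferrin-2, the glutathione carrier Slc25a40, the branched-chain amino acid carrier Slc25a44, Slc25a53, and Slc25a46, a protein of the outer membrane with a part in mitochondrial dynamics, were tested and called nowhere. The 20 carriers that did not pass the filter also included the ornithine/citrulline carrier Slc25a15, the basic amino acid carrier Slc25a29, the glutathione carrier Slc25a39, and Slc25a34, Slc25a35, Slc25a43, Slc25a47 and Slc25a48, to which no substrate is assigned here. The UMIs of these over all named nuclei ranged from 22 (Slc25a48) to 967 (Slc25a47). The mean of Slc25a46 ran from 20.2 in OPCs to 66.3 in endothelial cells and pericytes.

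Neurons were divided further by marker genes, and carrier levels in the subclasses are a description with no test. No subclass was given to 9 of 29 inhibitory and 10 of 31 excitatory sub-clusters, and their nuclei are not in these values. Of 23 carriers with a mean of at least 10 CPM in some inhibitory subclass, 5 had a subclass whose 4 libraries lay above those of the others, against 26.4% of all genes at that level. Slc25a13 was highest in PV-like neurons, which carry markers of the parvalbumin type, at 55.2 ± 11.4, and lowest in VIP-like neurons at 7.66 ± 1.32 (SD, n = 4 libraries). Slc25a28 was highest in PV-like neurons at 34.5 ± 3.56, followed by 21 in LAMP5-like neurons. Slc25a25 and Slc25a14 were highest in MSN-like neurons, those with striatal projection neuron markers, at 69.9 ± 5.72 and 39 ± 3.05. Slc25a17, the peroxisomal cofactor carrier, was highest in LAMP5-like neurons at 44.2 ± 9.91.

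In the excitatory subclasses 2 of 22 carriers had such a subclass, against 18.9% of all genes at that level. It was layer 5 ET-like neurons, the extratelencephalic projection type, for both. Slc25a13 had 13.9 ± 3.04 there, against 3.07 in layer 5/6 NP-like neurons, the next highest. Slc25a12 had 182 ± 7.51, against 147 in the same next subclass. Of the NP-like nuclei, 696 came from a cluster with a marker score of 0.898, against 3.78 for the other 498. That cluster had no NP-like marker among its 10 leading genes, so the name is weak for most of this subclass. Slc25a27 was lowest in layer 5 ET-like neurons at 51.7 ± 3.59, below every library of the other subclasses. Slc25a42 had 45 ± 5.25 in layer 6 CT-like and 41.8 in layer 5 ET-like neurons, with overlapping libraries. Across carriers, the median ratio of the highest to the lowest subclass was 1.86 in inhibitory and 1.49 in excitatory neurons.

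**Figure D3:**
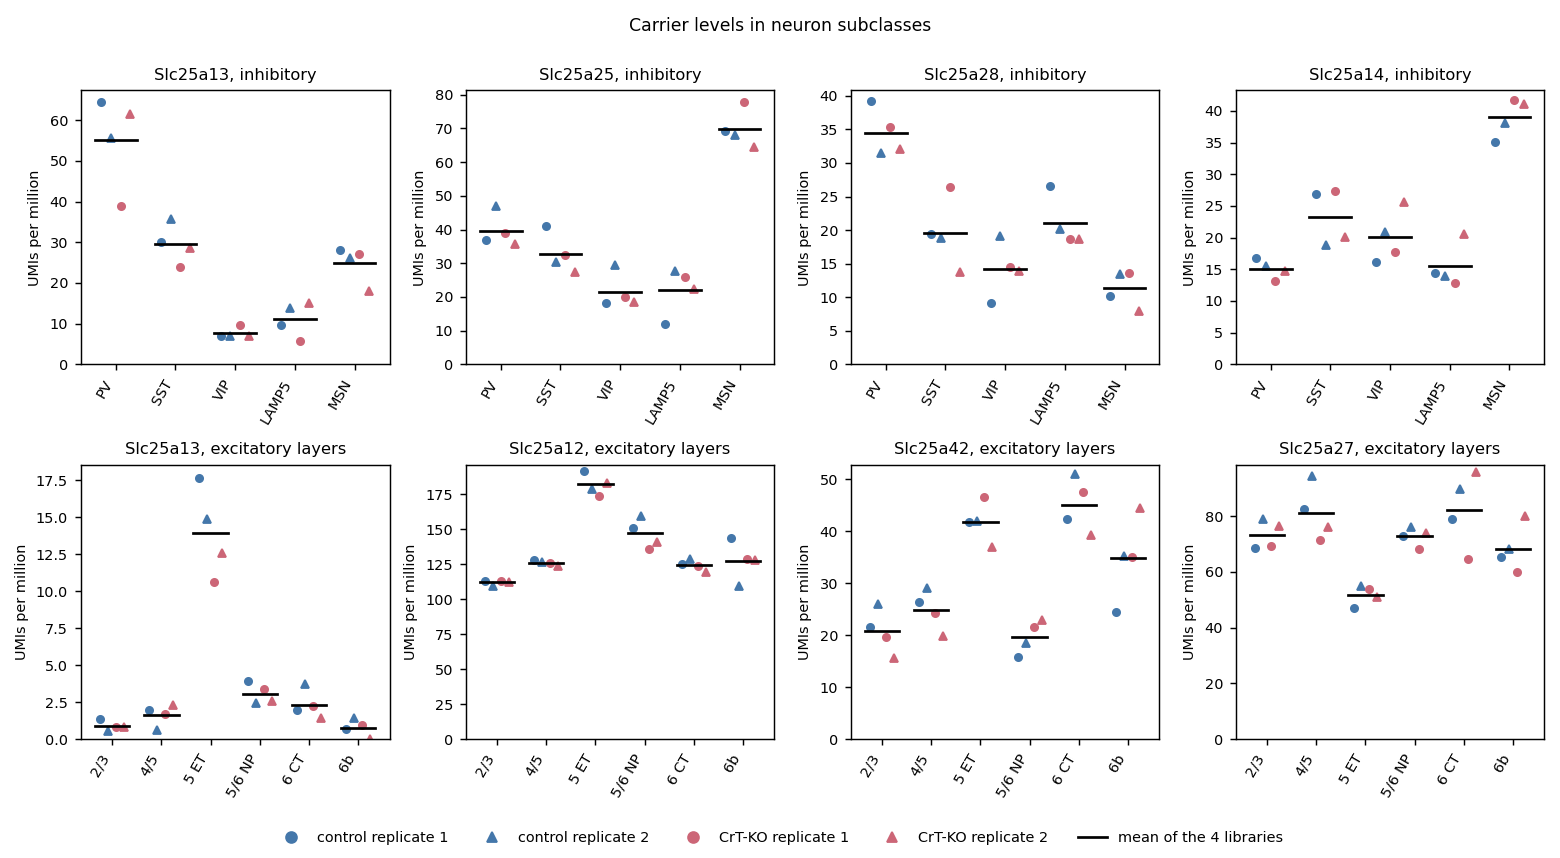
Levels of carriers in inhibitory subclasses (upper row) and excitatory layer subclasses (lower row) in CPM (linear axes from 0), with a point for each library and a line at the mean of the 4. Slc25a13 is highest in PV and layer 5 ET neurons, and Slc25a25 and Slc25a14 in the MSN subclass.

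The question of the study's design was what changes when the creatine transporter is lost, and each population was therefore tested between genotypes, with a call at an adjusted p under 0.1 over all genes tested there. No carrier was called in any of 13 populations and subclasses by edgeR or by DESeq2, in fits without a replicate block. The carriers tested were 44 in all named nuclei (0.0469% of all genes tested were called), 41 in excitatory neurons (0.13%), 39 in inhibitory neurons (0.0778%), 14 in astrocytes (0.02%), 26 in oligodendrocytes (0.21%), 15 in OPCs (0.0975%), 20 in microglia (0.0415%) and 2 in endothelial cells and pericytes (0%). In the inhibitory subclasses they were 28 in PV-like (0.0321%), 25 in SST-like (0.111%), 20 in VIP-like (0%), 16 in LAMP5-like (0.0321%) and 29 in MSN-like neurons (0.0801%). With so few genes called, a count of 0 carriers does not set the family apart from other genes. At an unadjusted p under 0.05, edgeR gave 6 carriers in all named nuclei (6.6% of all genes tested), 5 in excitatory neurons (8.87%), 3 in inhibitory neurons (5.17%), 3 in oligodendrocytes (6.75%), 1 in SST-like neurons (6.06%), 2 in VIP-like neurons (4.41%) and 0 elsewhere (3.97% to 6.21%). DESeq2 gave 3 in all named nuclei (3.53%), 2 in excitatory neurons (4.4%) and 0 elsewhere (0.387% to 1.9%). Slc25a2, Slc25a48 and Slc25a54 did not pass the filter in any population.

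With 2 libraries against 2, many genes have both CrT-KO libraries on one side of both controls. This held for 14 of 44 carriers in all named nuclei (38.2% of all genes tested), 16 of 41 in excitatory neurons (40.7%), 10 of 26 in oligodendrocytes (36.4%), 13 of 39 in inhibitory neurons (32.3%), 5 of 14 in astrocytes (32.9%), 4 of 15 in OPCs (35.7%), 4 of 20 in microglia (35.2%) and 2 of 2 in endothelial cells and pericytes (32.7%). Except in endothelial cells and pericytes, where only these 2 were tested, the share of carriers was near that of all genes or below it, so genotypes that do not overlap are a description of the libraries and no support for a difference.

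None of the values in the following paragraphs passed the test after adjustment, in the fit without a replicate block. The smallest p-value in excitatory neurons belonged to Slc25a23, with 68.8 and 77.8 CPM in the control and 87.3 and 85.1 in the CrT-KO libraries. The CrT-KO libraries were both above the controls (log2 fold change 0.28, SE 0.083, adjusted p = 0.349). In inhibitory neurons it had 86.8 and 93.4 in control and 104 and 98.5 in CrT-KO libraries, also without overlap (0.18, SE 0.0869, adjusted p = 0.966).

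Slc25a4 had 19.6 and 18.6 CPM in control and 14.5 and 15.1 in CrT-KO excitatory neurons (-0.32, SE 0.102, adjusted p = 0.41). In oligodendrocytes it had 39.7 and 46 in control and 27.3 and 29.6 in CrT-KO libraries (-0.61, SE 0.205, adjusted p = 0.39). Both CrT-KO libraries lay below both controls in each of these populations. Slc25a5, whose counts are uncertain, had 2.78 and 2.53 in control and 1.67 and 1.8 in CrT-KO excitatory neurons (-0.56, SE 0.205, adjusted p = 0.462). Slc25a3 had a log2 fold change of -0.16 in excitatory and -0.22 in inhibitory neurons.

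Among the other carriers in oligodendrocytes, the smallest p-values were those of Slc25a27 and Slc25a47. Slc25a27 had 199 and 221 CPM in control and 145 and 187 in CrT-KO oligodendrocytes (-0.35, SE 0.136, adjusted p = 0.574). In OPCs it had 75.5 and 81.3 against 73.6 and 57.4 (-0.22, SE 0.257, adjusted p = 0.943). The genotypes did not overlap in either population. Slc25a47, with no substrate assigned here, had 6.82 and 12.3 against 4.75 and 5.7 in oligodendrocytes, from 56 UMIs (-0.93, SE 0.432, adjusted p = 0.711). Slc25a13 had 349 and 462 in control and 368 and 539 in CrT-KO oligodendrocytes, which overlapped (0.14, SE 0.158, adjusted p = 0.91).

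In inhibitory neurons, Slc25a15, an ornithine/citrulline carrier, had 31 and 23 UMIs in control and 17 and 11 in CrT-KO libraries (-0.94, SE 0.377, adjusted p = 0.952). Slc25a36 had 92.6 and 87.3 CPM in control and 100.04 and 100.35 in CrT-KO libraries (0.17, SE 0.0831, adjusted p = 0.966). Neither gene overlapped between genotypes.

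In astrocytes, Slc25a33 had 73.2 and 77.4 CPM in control and 42.2 and 50.8 in CrT-KO libraries, from 74 UMIs (-0.73, SE 0.362, adjusted p = 0.994). Slc25a3 had 43.9 and 43.2 against 60.2 and 76.2 (0.63, SE 0.379, adjusted p = 0.994), and Slc25a36 had 102 and 137 against 172 and 152 (0.34, SE 0.25, adjusted p = 0.994). The genotypes did not overlap for these 3 carriers, the first lower and the others higher in CrT-KO libraries.

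In OPCs, Slc25a13 had 40.5 and 44.2 CPM in control and 51.7 and 66.5 in CrT-KO libraries (0.46, SE 0.309, adjusted p = 0.882). Slc25a42 had 29.4 and 38.9 against 21.9 and 24.2 (-0.57, SE 0.407, adjusted p = 0.885). These did not overlap either, on 720 nuclei in all.

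In microglia, Slc25a53 had 25.9 and 18.8 CPM in control and 36 and 39.3 in CrT-KO libraries (0.78, SE 0.381, adjusted p = 0.821), and Zcchc18 overlaps 9.30% of it on the other strand. Slc25a40 had 38.8 and 33 against 21.3 and 20.6 (-0.75, SE 0.384, adjusted p = 0.821). Slc25a28 had 32.3 and 15.7 against 42.5 and 26.2 (0.60, SE 0.41, adjusted p = 0.873), with overlap. In endothelial cells and pericytes, Slc25a36 had 1 and 19 UMIs in control and 22 and 12 in CrT-KO libraries (0.78, SE 0.473, adjusted p = 0.994) and Slc25a12 had 7 and 19 against 13 and 7 (-0.40, SE 0.47, adjusted p = 0.994). These were the only carriers tested there.

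**Figure D4:**
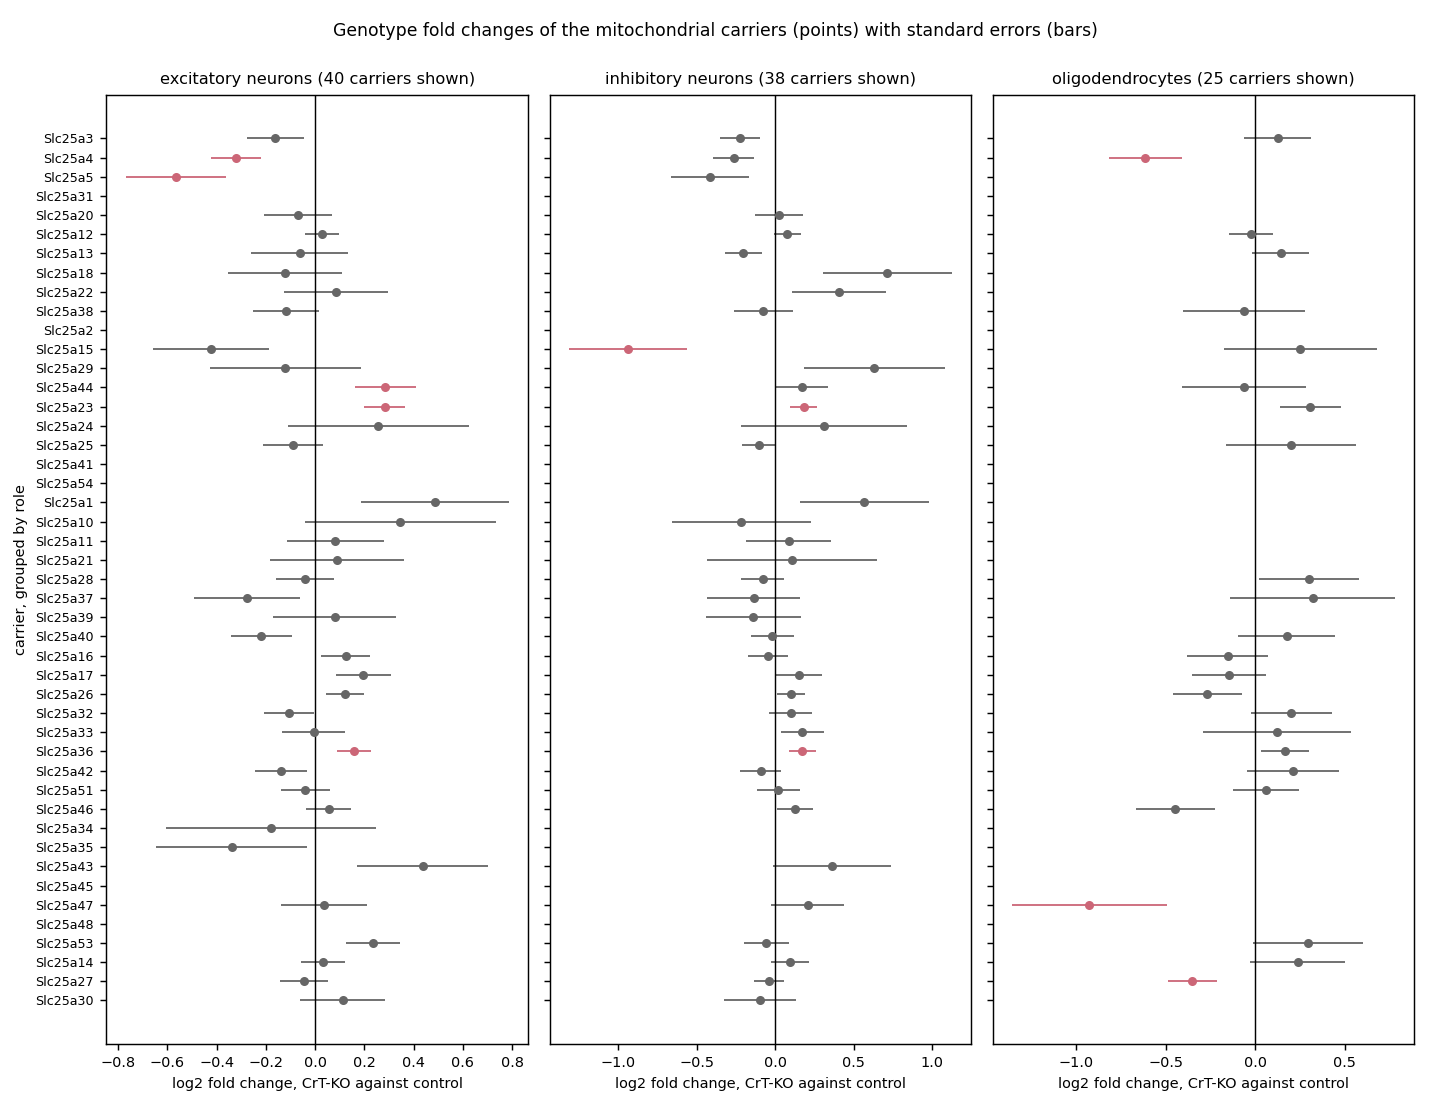
Log2 fold change of CrT-KO against control for carriers tested in excitatory neurons, inhibitory neurons and oligodendrocytes, with bars of 1 standard error, rows grouped by role and points with an unadjusted p under 0.05 in red. Slc25a4 lies below 0 and Slc25a23 above 0 in each panel, and no point passed an adjusted p under 0.1.

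By role, the 3 tested carriers of ADP/ATP exchange and phosphate had log2 fold changes of -0.56 to -0.16 in excitatory and -0.42 to -0.22 in inhibitory neurons. The 4 carboxylate carriers had 0.08 to 0.49 in excitatory and -0.22 to 0.57 in inhibitory neurons. The nucleotide and cofactor carriers tested had -0.14 to 0.20 and -0.09 to 0.17, and none of these groups held a call. Over all carriers tested, the median was -0.01 in excitatory neurons, 0.02 in inhibitory neurons and 0.12 in oligodendrocytes. Over all genes tested it was -0.00501, -0.00122 and -0.00176. In excitatory neurons 20 carriers had a positive and 21 a negative value, and in oligodendrocytes 15 and 11.

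Whether the genotype effect differed between populations was tested as an interaction against excitatory neurons for 42 carriers. None was called for inhibitory neurons (0.181% of all genes tested were called), oligodendrocytes (0.326%) or microglia (0.0217%) by edgeR, the only tool used for it, and 1, 4 and 2 carriers had an unadjusted p under 0.05, against 4.68%, 6.94% and 6.06% of all genes tested. Slc25a27 in oligodendrocytes had the smallest p, with a difference in log2 fold change of -0.32, SE 0.112, adjusted p = 0.436. Slc25a46, Slc25a26 and Slc25a47 were the others in oligodendrocytes (-0.52, -0.41 and -0.96). The remaining ones were the sparse Slc25a48 in inhibitory neurons and Slc25a51 and Slc25a18 in microglia.

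Summed over the family, the carriers made up 881.3, 878.3, 878.1 and 871.1 CPM in all named nuclei of the 4 libraries. Both CrT-KO libraries lay below both controls there, with a difference of -0.595% between the means (exact permutation test, two-sided, p = 0.333, the smallest that 2 libraries against 2 allow). In excitatory neurons they made up 819, 796, 810.4 and 791, in inhibitory neurons 962, 946, 978 and 956 and in oligodendrocytes 1398, 1544, 1383 and 1609. Slc25a13 alone made up 349 to 539 CPM of the sums in oligodendrocytes. The genotypes overlapped in each of the 7 populations but not in LAMP5-like and MSN-like neurons, where the CrT-KO means were 3.52% and 4.18% above the control means (exact p = 0.333 in both). Over the 7 populations the CrT-KO mean differed from the control mean by between -2.51% (OPCs) and 4.11% (endothelial cells and pericytes). When 1 library was left out, the difference between the means ran from -172 to 256 CPM in endothelial cells and pericytes (-172 without CrT-KO replicate 1, 256 without CrT-KO replicate 2), -33.6 to 96 in astrocytes, -88.1 to 138 in oligodendrocytes, -67.1 to 20.9 in OPCs and -18.2 to 4.66 in excitatory neurons, so its sign depended on the libraries in these 5 populations. The same exact test (6 ways to assign the libraries) gave p = 0.667 in excitatory neurons, 0.667 in inhibitory neurons and 1 in oligodendrocytes.

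**Figure D5:**
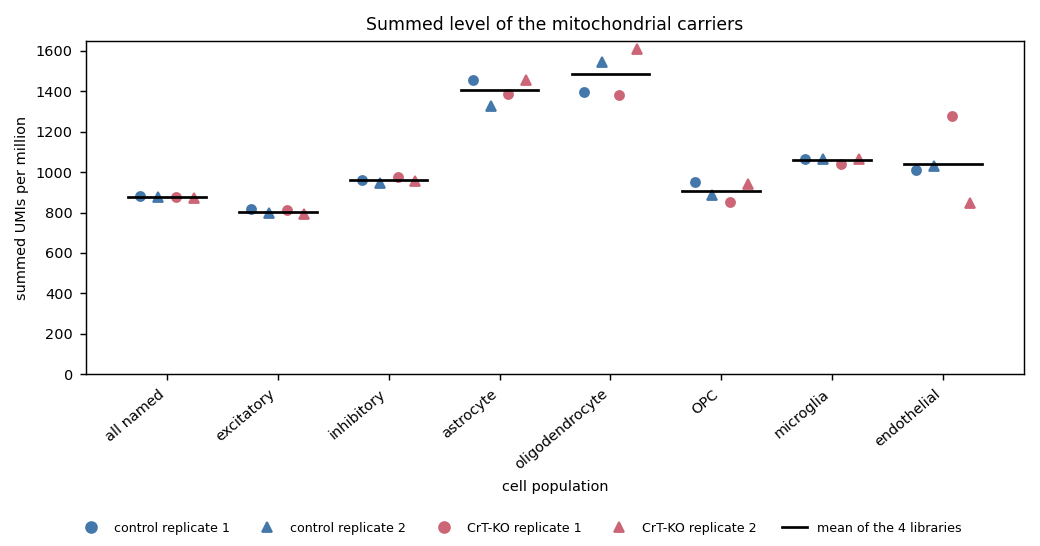
Summed level of the 47 carriers in CPM (linear axis from 0) in all named nuclei and each cell population, with a point for each library and a line at the mean of the 4. Astrocytes and oligodendrocytes lie highest, and control and CrT-KO points overlap in each of the 7 cell populations. A few genes weigh heavily in these 2 sums. Slc25a13 alone had a mean of 429 of the 1484 CPM in oligodendrocytes. Slc25a18 and Slc25a21 had 177 and 120 of the 1407 CPM in astrocytes.

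A list of 26 other mitochondrial genes held family members under other symbols (Ucp1, Ucp2, Ucp3, Mtch1 and Mtch2), the pyruvate carrier, the outer membrane porins, the TIM22 machinery that inserts carriers into the inner membrane, the enzymes of the malate-aspartate shuttle and the calcium uniporter complex. None of them was called by genotype in any of the 13 populations and subclasses. In excitatory neurons 22 were tested, with a median log2 fold change of 0.03, in inhibitory neurons 22 (-0.01) and in oligodendrocytes 19 (-0.02). In these populations the members with an unadjusted p under 0.05 by edgeR were Mpc1, a subunit of the pyruvate carrier, in excitatory neurons (0.16, SE 0.0709, adjusted p = 0.552), and in inhibitory neurons Got1, a shuttle enzyme (-0.27, SE 0.114, adjusted p = 0.952), and Timm9, a carrier chaperone (0.19, SE 0.0891, adjusted p = 0.952). Of all genes tested, 8.87% in excitatory neurons, 5.17% in inhibitory neurons and 6.75% in oligodendrocytes had such a p. The genes named here therefore do not set the list apart.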

How the data were processed

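Single-nucleus libraries of the right cortex of 2 control and 2 CrT-KO mice were deposited as 1 matrix of raw UMI counts each, which the authors made with Cell Ranger 3.1.0 on a custom pre-mRNA reference of GRCm38 (mm10) in which introns counted as exon, so counts grow with gene length. Whether counting used strand is not given in the sources used here, and reads from overlapping genes cannot be told apart. From the counts, doublets were removed with Scrublet in each library, nuclei were clustered with scanpy 1.11.5 without the Slc25a genes (3000 variable genes, 30 principal components, Leiden resolution 1.0), and clusters took names from marker lists. The thresholds of naming (at least 3 markers detected in 10% of nuclei) were set after the data were seen. No deposited cell annotation was used here, so names and shares may differ from those of the study.

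UMIs were summed over nuclei of each population and library and tested with edgeR 4.0.16 (quasi-likelihood, TMM scaling, filterByExpr with a minimum count of 10) between genotypes, between populations with the library as a block, and for their interaction, with Benjamini-Hochberg adjustment over all genes tested and a threshold of 0.1. The study tested single nuclei, whereas here the library was the replicate. Levels are plain CPM, and fold changes come from the fits. DESeq2 1.42.0, other scalings, filters, nuclei and left-out libraries were alternatives. Scripts were tested on simulated counts. The shares of all genes set beside counts of carriers were added after the data were seen. Genes to be given with values in every library were Slc6a8, the 3 carriers with the smallest p per population between genotypes, the top 2 called higher per population, and 12 chosen by function. Of the last, Slc25a14, Slc25a22 and Slc25a46 are given as means only. Subclass examples were chosen after their values were seen. The members and lists were chosen with earlier results of these data known. Gene positions are from GENCODE vM21, which held 21816 of the 21933 identifiers. Depth was 51507483 to 65240843 UMIs per library, and limits for counts of 0 (3 UMIs) cover counting error only. The single values of 1 carrier are not reported here.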

Additional observations from a re-analysis of the deposited data

Results flagged for a closer look

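The following carriers were picked out because both CrT-KO libraries lay above both controls in one population and below them in another. Over any pair of the 7 populations this held for 4 of 39 carriers and for 21.5% of the 12931 genes tested in at least 2 populations, and for the pairs of inhibitory neurons with OPCs, oligodendrocytes and microglia it held for 4.44%, 4.31% and 4.46% of genes. For none of them was the difference between the populations tested, and none of the values passed an adjusted p under 0.1 in edgeR's quasi-likelihood test. Slc25a13 had a log2 fold change of 0.46 (SE 0.309) in OPCs and -0.20 (SE 0.119) in inhibitory neurons, a difference of 0.66. Slc25a15 had 0.25 (SE 0.426) in oligodendrocytes and -0.94 (SE 0.377) in inhibitory neurons, a difference of 1.19. Slc25a53 had 0.78 (SE 0.381) in microglia and -0.06 (SE 0.142) in inhibitory neurons, a difference of 0.83, and Zcchc18 overlaps 9.30% of this gene on the other strand.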

How the results depend on the processing

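There were 2 libraries a group, and some calls rested on few counts, such as the 12 UMIs of Slc25a20 in endothelial cells and pericytes. Of the values of single carriers under the alternatives, 519 kept their direction and their side of the threshold, 26 were no longer past it, 3 passed it and 2 reversed, and the causes were not tested. The 26 and the 2 were all calls between populations. Values between genotypes were not past the threshold in the main fit, so they could not lose a call. The reversed values were those of Slc25a18 against the other populations without control replicate 2, at 0.049 in excitatory neurons (-1.44 to 0.049 over the left-out libraries) and 0.043 in inhibitory neurons (-1.90 to 0.043). The libraries share only a replicate number, with correlations of same-numbered deviations from 0.0201 to 0.186. In the fit with that number as a block, replicate 1 against replicate 2 called 421 of 13851 genes in excitatory neurons. It called 336 of 14937 in all named nuclei and 232 of 9048 in oligodendrocytes. What the number stands for is not given in the labels. With the replicate number as a block, 2 carriers were called by genotype in all named nuclei, 2 in excitatory neurons (Slc25a23, adjusted p = 0.0428, and Slc25a4, adjusted p = 0.098, by edgeR) and 1 in oligodendrocytes (Slc25a27, adjusted p = 0.0768). Without the block, 18 genes in excitatory neurons and 19 in oligodendrocytes were called by genotype. The share of all genes called by genotype with the block is not given here, so these counts do not set the carriers apart.

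Counts of carriers called between populations moved as follows. The shares of all genes called under the same settings are not given here, so these counts do not set the carriers apart. Under DESeq2 size factors, 0 were higher in excitatory and 2 lower in inhibitory neurons. These factors shifted the median of all genes by 0.12 in endothelial cells and pericytes. Without a filter, 4 were higher in excitatory neurons, 4 higher and 2 lower in inhibitory neurons, 3 lower in astrocytes, 5 higher in OPCs, 6 higher in microglia and 1 higher in endothelial cells and pericytes. With doublets kept, 0 were higher in excitatory neurons, 2 lower in astrocytes and 1 lower in OPCs. In control libraries only, 3 were lower in astrocytes and 1 in OPCs. At a log2 difference of at least 2, the higher and lower counts were 0 and 1 in excitatory neurons, 0 and 0 in inhibitory neurons, 2 and 0 in oligodendrocytes and 1 and 1 in OPCs, with 0 lower in microglia and 1 higher and 0 lower in endothelial cells and pericytes. Leaving out 1 library at a time gave 1 to 3 higher in excitatory neurons (1 without control replicate 2), 0 to 2 lower in inhibitory neurons (0 without control replicate 2, 2 without CrT-KO replicate 1), 1 to 4 lower in astrocytes (4 without control replicate 1, 2 without either CrT-KO library), 1 to 3 lower in OPCs (1 without CrT-KO replicate 2) and 2 to 4 lower in endothelial cells and pericytes (4 without control replicate 1).

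The difference in summed share between genotypes changed sign in astrocytes with doublets kept (31.2 to -67.3 CPM). It also did so in microglia when only nuclei with at least 1000 UMIs were used (-13.4 to 46.0 CPM). As a mean over genes in percent of each gene's mean, it was -5.98% in inhibitory neurons, -7.73% in astrocytes and -7.26% in endothelial cells and pericytes. The summed difference was positive in these populations, and the percents are not on the scale of CPM.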
